A study of Mus musculus with 9 samples.

Results

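The genes described here are 8 regulators of cytokine messenger RNA (mRNA) stability: Zc3h12a and Zc3h12c, which encode the endoribonucleases Regnase-1 and Regnase-3; Zfp36, Zfp36l1 and Zfp36l2, which encode the tristetraprolin family; Rc3h1 and Rc3h2, which encode Roquin-1 and Roquin-2; and Arid5a, which encodes an RNA-binding protein. They were chosen by name, as a group with a shared role and with earlier results of these data known. All 8 were measured among the 52476 gene symbols of the tables. All 8 were among the 11768 genes that reached an FPKM (mapped fragments scaled to transcript length and library depth) of at least 1 in at least 3 of the 9 libraries and were tested.

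The cells were monocyte-derived dendritic cells grown from C57BL/6 mouse bone marrow monocytes with GM-CSF and IL-4 and then sorted. One group of 3 libraries received R837 together with spermidine, a second group of 3 received R837 alone, and 3 control libraries were not stimulated. R837 (imiquimod) is a small-molecule agonist of the endosomal RNA sensor TLR7, and spermidine is a natural polyamine. Both treated groups were primed with interferon α for 24 h before 18 h of R837, while priming of the control cells is not stated, so R837 and priming cannot be told apart in any comparison with control. Nor is it stated whether replicates came from separate animals or cultures, so p-values measure the spread between these libraries. The animals' age was not given in the sources used here.

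Cytokine transcripts are made in bursts and are short-lived because sequences in their 3′ untranslated regions (3′UTRs) are read by decay factors. Proteins of the tristetraprolin family bind AU-rich elements and recruit the CCR4-NOT complex, which removes the poly(A) tail. Regnase-1 cuts stem-loops with a small pyrimidine-purine-pyrimidine loop, and the Roquin proteins bind such stem-loops and also recruit CCR4-NOT. Arid5a is known as an opposing factor, which stabilizes Il6 and some other transcripts that Regnase-1 destroys. In myeloid cells several of these genes are themselves induced by Toll-like receptor signals. The libraries measured transcript levels only, and neither protein nor rate of decay was measured.

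The elements these proteins read were looked for in the longest annotated 3′UTR of each gene (GENCODE mouse release 21, GRCm38), on the transcript strand only, counting overlapping copies. The AU-rich core TATTTAT (with U for T in the RNA) was in the 3′UTR of 6 of the 8 members, of 21 of 33 tested textbook target transcripts (63.6%) and of 29.5% of the 9951 tested genes with an annotated 3′UTR. Copies per kilobase were 0.623 in the members, 2.14 in the targets and 0.291 in all those genes. The windows below show the densest 30 bases of 3 targets and of the 3 tristetraprolin family transcripts, since the family's members carry the element they bind; capitals mark TATTTAT copies.
Tnf: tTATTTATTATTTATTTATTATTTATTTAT
Cxcl1: TATTTATTTATgTATTTATTTATtccacaa
Il12b: aagtaatttatgTATTTATtaatttatttc
Zfp36: TATTTATgacgacttTATTTATtgtattaa
Zfp36l1: cttatcaaaacgTATTTATtgccaaactat
Zfp36l2: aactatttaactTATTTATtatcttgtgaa

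The Tnf window lies at chr17:35199678-35199707 on the minus strand and holds 5 overlapping copies of the 8 in that 3′UTR. The Cxcl1 window (chr5:90892610-90892639, plus strand) holds 4 copies of 6, and the Il12b window (chr11:44413477-44413506, plus strand) holds the 1 copy of its 3′UTR. Zfp36 (chr7:28376954-28376983), Zfp36l1 (chr12:80108422-80108451) and Zfp36l2 (chr17:84184914-84184943), all on the minus strand, have 3 copies each in the whole 3′UTR. No member had 4 or more copies, against 9 of the 33 targets (27.3%) and 1.37% of all genes examined. The targets were listed as known targets of proteins that read such elements, so their higher shares, here and for stem-loops below, are no independent result.

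A stem-loop was counted where 5 paired bases enclose a loop of 3 bases that reads pyrimidine, purine, pyrimidine. Such a stem-loop was in the 3′UTR of 4 of the 8 members (Zc3h12a, Zc3h12c, Rc3h1 and Rc3h2), of 13 of the 33 targets (39.4%) and of 23.7% of all genes examined. Members' 3′UTRs were long, with a median of 2830 bases, against 706 in the targets and 1130 in all genes, and stem-loops per kilobase were 0.389, 0.555 and 0.195. The 3 stem-loops of Zc3h12a, whose product is known to act on its own transcript, are shown with the 2 of Nfkbiz and 1 of the 2 of Tnf, the one with a TGT loop; capitals mark the loop.
Zc3h12a, first: ttgatacaCATtgtatctc
Zc3h12a, second: ttaggcacCATgtgcctgc
Zc3h12a, last: gatttaaaTATtttaaatg
Nfkbiz, first: gttgtttcTATgaaacaaa
Nfkbiz, second: ttcactatTATatagtgga
Tnf: atgttttcTGTgaaaacgg

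The Zc3h12a stem-loops lie at chr4:125119067-125119085, chr4:125118885-125118903 and chr4:125118661-125118679, those of Nfkbiz at chr16:55812612-55812630 and chr16:55812584-55812602, and the one shown of Tnf at chr17:35199583-35199601, all on the minus strand. A match to these letters is a description and not a measured binding site.

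Sorted cells carried the transcripts of antigen-presenting cells: H2-Ab1, a class II gene, lay between 405 and 579 FPKM and Itgax, which encodes CD11c, between 88.4 and 108 FPKM over the 9 libraries. Cd209a, a marker of monocyte-derived dendritic cells, was listed at 0 in all 9, Flt3 reached at most 0.418 FPKM, and the macrophage genes Csf1r and Adgre1 ranged from 265 to 291 and from 71.6 to 173 FPKM. The lowest Adgre1 value was that of R837 replicate 2, and all other libraries had 116 to 173 FPKM. That replicate was also lowest for the myeloid gene Itgam, at 37.1 FPKM, against 104 to 173 FPKM in all others. Correlations between libraries of a group on the log2 scale were 0.983 to 0.986 with R837 and spermidine, 0.967 to 0.981 with R837 and 0.984 to 0.985 in control. R837 replicate 3 stood apart, with a summed level of the 7 erythroid and platelet markers of 1340 FPKM and of the 9 neutrophil markers of 398 FPKM. R837 replicate 2 had 197 and 77.4 FPKM, R837 replicate 1 had 26.2 and 75.3 FPKM, and the other 6 libraries had 20.6 to 30.5 and 52.9 to 71.2 FPKM. Most of the erythroid and platelet sum was globin, Hbb-bs and Hba-a1, at 815 and 487 FPKM in R837 replicate 3 and 98.0 and 72.4 FPKM in replicate 2. The platelet gene Pf4 had 22.4 FPKM in R837 replicate 3, within its range of 19.2 to 28.3 FPKM over the 9 libraries. Ppbp, another platelet gene, was highest there, at 6.37 FPKM. Other marker levels moved with treatment: the 6 mast cell and basophil markers summed to 6.35 to 7.44 FPKM with R837 and spermidine and 5.91 to 9.62 FPKM with R837, against 12.6 to 16.3 FPKM in control, with 4 of the 6 below 1 FPKM in all 9 libraries. The 4 stromal markers summed to 3.75 to 4.87, 11.3 to 12.2 and 0.319 to 0.83 FPKM in the same order, most of it Pdgfrb in the treated libraries, while Col1a1 reached at most 0.0401 FPKM. The monocyte gene Cd14 lay at 399 to 413, 410 to 513 and 153 to 158 FPKM, and Mertk, a macrophage receptor, at 7.32 to 8.26, 7.78 to 8.95 and 18.2 to 21.8 FPKM. The part of these markers in the changes of the decay factors was not tested. The depths estimated from the steps between low values were 10600000 to 14400000 reads or read pairs a library. Steps were searched only within a preset range, which bounds these depths, and 32.4% to 36.6% of low values lay at a whole step. On these rough estimates, 1 FPKM of a transcript of 1 kb stood for 10.6 to 14.4 reads or read pairs. In bulk samples, fewer cells of a type and less RNA per cell cannot be told apart.

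The leading decay factor differed between control cells and both treated groups. In control cells Zfp36l2 was the most abundant of the 8, at 187 FPKM, followed by Zfp36 at 29.4 FPKM and Zc3h12a at 21.1 FPKM; in R837 cells Zc3h12a came first at 141 FPKM, then Zfp36l2 at 83.1 and Zfp36 at 43.6 FPKM. R837 with spermidine gave the same first 3, with 108 FPKM for Zc3h12a, 97.9 for Zfp36l2 and 46.6 for Zfp36. Within each group no library of one of these 3 genes reached the level of its neighbour in the order. Among the lower genes, libraries overlapped between Zc3h12c and Rc3h1 with R837 and spermidine, between Zfp36l1 and Rc3h1 and between Rc3h2 and Arid5a with R837, and between Rc3h1 and Zc3h12c and between Arid5a and Rc3h2 in control.

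**Figure D1:**
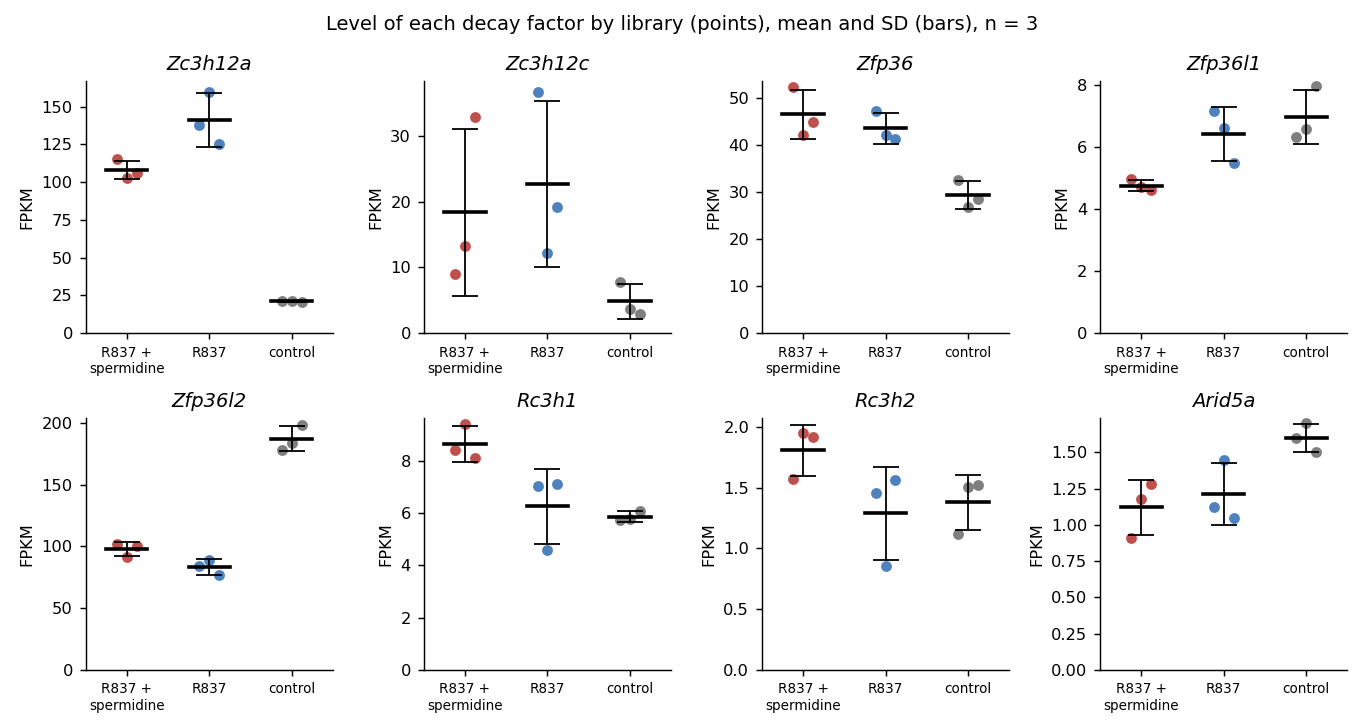
Level of each of the 8 genes in FPKM (linear axis from 0) in the 3 libraries of each group (points), with the mean and SD (bars), R837 with spermidine at the left and control at the right. Zc3h12a lies at 103 to 115 FPKM with R837 and spermidine and at 125 to 160 FPKM with R837, against 20.7 to 21.5 FPKM in control; Zfp36l2 is highest in control.

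Against control, R837 called 3 members higher (Zc3h12a, Zc3h12c and Zfp36) and 1 lower (Zfp36l2) by limma at an adjusted p of at most 0.05. Over all tested genes 43.2% were called in that comparison, 13.6% higher and 29.5% lower. The libraries of both groups did not overlap for 5 of the 8 members, against 54.0% of all genes. R837 with spermidine called 4 members higher and 3 lower than control, where 46.8% of all genes were called, 14.1% higher and 32.7% lower, and all 8 members had libraries that did not overlap, against 62.9% of all genes. R837 with spermidine against R837 called 1 member lower, Zc3h12a, and 0 higher. In that comparison 13.6% of all genes were called, 8.0% lower and 5.6% higher. At an unadjusted limma p under 0.05, 2 members were lower and 2 higher, against 1948 and 1503 of all 11768 genes. Without R837 replicate 2 the calls by adjusted p for R837 with spermidine against R837 included 1 higher (Zfp36l2). Those of R837 against control were then 4 higher and 2 lower. Without R837 replicate 3 Zfp36l1 made 2 lower for R837 with spermidine against R837. Without control replicate 2 the 4 higher calls of R837 with spermidine against control became 2. Libraries of R837 with spermidine and of R837 alone did not overlap for 5 of the 8 members, against 32.9% of all genes. Scaling matters for the comparisons with control: the median change of all genes was -0.17 on the log2 scale for each treated group against control, and rescaling by median of ratios moved it by 0.16 and 0.17. The share of higher genes among all calls was 31.6% in FPKM and 54.7% after that rescaling for R837 against control, and 30.1% and 53.9% for R837 with spermidine against control.

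Zc3h12a (chromosome 4, 125118423 to 125127840, minus strand, GRCm38) encodes Regnase-1, which degrades Il6, Il12b and Nfkbiz transcripts among others. Its level was 115, 103 and 106 FPKM in the libraries with R837 and spermidine, 138, 160 and 125 FPKM with R837, and 21.5, 20.9 and 20.7 FPKM in control. The 3 groups were fully separated. The mean FPKM of Zc3h12a with R837 was 6.70-fold that of control, a log2 change of 2.68 ± 0.09 (SE, limma adjusted p = 7.3e-08). With spermidine present the level was 5.13-fold that of control, a log2 change of 2.31 ± 0.09 (limma adjusted p = 3.6e-07). Set against R837 alone, adding spermidine gave 0.766 of the level, a log2 change of -0.38 ± 0.09, which passed the threshold narrowly (limma adjusted p = 0.031). That call did not hold without control replicate 1, 2 or 3 (adjusted p = 0.053, 0.056 and 0.052), without R837 replicate 1 (0.064) or without either replicate 2 or replicate 3 of the spermidine group (0.10 each), while the log2 change stayed between -0.46 and -0.28. It held without R837 replicate 3, the library with the highest globin and neutrophil marker levels, at -0.46 and an adjusted p of 0.017. The genes with the pattern most like that of Zc3h12a were Cxcl10, an interferon-induced chemokine, Dusp4, a phosphatase of MAP kinases, and Sod2, the mitochondrial superoxide dismutase, each with a Pearson r of 0.999 over the 9 libraries, which fall into the 3 groups.

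Zc3h12c (chromosome 9, 52111344 to 52168572, minus strand) encodes Regnase-3, a relative of Regnase-1. Its level was 9.05, 13.3 and 32.8 FPKM with R837 and spermidine, 36.6, 12.1 and 19.2 FPKM with R837, and 7.80, 3.63 and 2.97 FPKM in control. Each treated library was above each control library, and both treated groups overlapped and spread widely. That spread is the widest of the 8 genes on the log2 scale, with a standard error of 0.51. The mean was 4.72-fold higher with R837 than in control (log2 change 1.98, limma adjusted p = 0.013). With R837 and spermidine it was 3.83-fold that of control (log2 change 1.64, adjusted p = 0.027), a call that did not hold without control replicate 2 (0.080), control replicate 3 (0.087) or R837 with spermidine replicate 3 (0.086). The log2 change between R837 with spermidine and R837 was -0.35 (adjusted p = 0.69), and the sign turned without R837 replicate 1 (0.05) or R837 with spermidine replicate 1 (0.03). The microRNA gene Mir6244 lies inside Zc3h12c on the opposite strand, and its listed level was 74.4, 74.4 and 82.2 FPKM with R837 and spermidine, 84.1, 105 and 83.0 FPKM with R837, and 20.3, 21.8 and 12.9 FPKM in control. Use of strand in counting is not given in the sources used here, so reads of these overlapping genes cannot be told apart.

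Zfp36 (chromosome 7, 28376784 to 28380253, minus strand) encodes tristetraprolin, whose loss in mice leads to excess Tnf. Its level was 52.4, 42.2 and 45.0 FPKM with R837 and spermidine, 47.3, 42.1 and 41.3 FPKM with R837, and 32.7, 26.9 and 28.6 FPKM in control. Both treated groups lay above control and overlapped each other. The mean of Zfp36 with R837 was 1.48-fold that of control (log2 change 0.56 ± 0.11, limma adjusted p = 0.0028). With R837 and spermidine it was 1.58-fold that of control (0.65 ± 0.11, limma adjusted p = 0.0012). Between R837 with spermidine and R837 the log2 change was 0.09 ± 0.11 (adjusted p = 0.61). An antisense gene overlaps Zfp36 and was listed at 1.84 to 4.03 FPKM. The patterns most like that of Zfp36 were those of Bcl2l11, which encodes the pro-apoptotic protein Bim (r = 0.962), Cldnd1 (0.959) and Sqstm1, which encodes the autophagy receptor p62 (0.958), over the 9 libraries.

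Zfp36l2 (chromosome 17, 84183931 to 84187947, minus strand), a tristetraprolin paralogue that binds the same elements, moved the other way. Its level was 102, 91.6 and 99.8 FPKM with R837 and spermidine, 84.1, 88.7 and 76.4 FPKM with R837, and 178, 184 and 198 FPKM in control. The 3 groups were fully separated, with R837 lowest and control highest. With R837 the mean of Zfp36l2 was 0.445 of that in control, a log2 change of -1.16 (SE 0.08, limma adjusted p = 5.6e-06). R837 with spermidine gave 0.525 of control, a log2 change of -0.92 ± 0.08 (adjusted p = 3.2e-05). Between R837 with spermidine and R837 the log2 change of 0.24 ± 0.08 did not pass (adjusted p = 0.090); it passed without R837 replicate 2, at 0.28 (adjusted p = 0.042). An antisense gene that shares 2192 bases with Zfp36l2 was not analysed here. Gpr157, an orphan receptor (r = 0.995), Gfod1 and Ank, a pyrophosphate transport protein (0.992 each), had the most similar patterns.

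Zfp36l1 (chromosome 12, 80107754 to 80113013, minus strand) encodes the other paralogue and was low. It had 4.96, 4.71 and 4.61 FPKM with R837 and spermidine, 7.17, 6.63 and 5.48 FPKM with R837, and 6.34, 6.60 and 7.97 FPKM in control. The libraries with spermidine lay below all others, while R837 and control overlapped. R837 against control gave -0.10 ± 0.11 (limma adjusted p = 0.48), a sign that turned under median-of-ratios scaling (0.07) and quantile normalization (0.02). With R837 and spermidine it was lower than in control, at -0.46 ± 0.11 (adjusted p = 0.0080), and the call was lost under those scalings (-0.28 with 0.074 and -0.32 with 0.057). Against R837 alone, R837 with spermidine gave -0.36 ± 0.11 and did not pass (adjusted p = 0.063); it passed at -0.46 without R837 replicate 3 (adjusted p = 0.031). A long noncoding RNA gene shares 4967 bases with Zfp36l1 on the opposite strand and was listed at 2.07 to 4.14 FPKM. Rnf181 (r = 0.969), Ndufa11, a subunit of respiratory complex I (0.967), and Med9, a subunit of Mediator (0.963), were most like it.

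Taken as a family of 3, these transcripts summed to 149 ± 10.6 FPKM with R837 and spermidine and 133 ± 8.55 FPKM with R837, against 223 ± 9.84 FPKM in control (SD, n = 3 each). Every treated library was below every control library. With 3 libraries against 3, the two-sided exact permutation test can give no p below 0.1, and it gave 0.1 for each treated group against control and 0.2 for R837 with spermidine against R837. The ratio of means was 0.597 for R837 over control and 0.687 after median-of-ratios scaling, and 0.669 and 0.774 for R837 with spermidine over control. Zfp36l2 made up 65.7 ± 1.41% of the sum with R837 and spermidine, 62.4 ± 1.96% with R837 and 83.7 ± 1.43% in control, and Zfp36 made up 31.1 ± 1.46%, 32.8 ± 1.87% and 13.2 ± 1.60%. There were 2.11 ± 0.141 FPKM of Zfp36l2 for each FPKM of Zfp36 with R837 and spermidine and 1.91 ± 0.173 with R837, against 6.40 ± 0.826 in control. These shares compare genes within a library and do not depend on how libraries are scaled to each other.

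**Figure D2:**
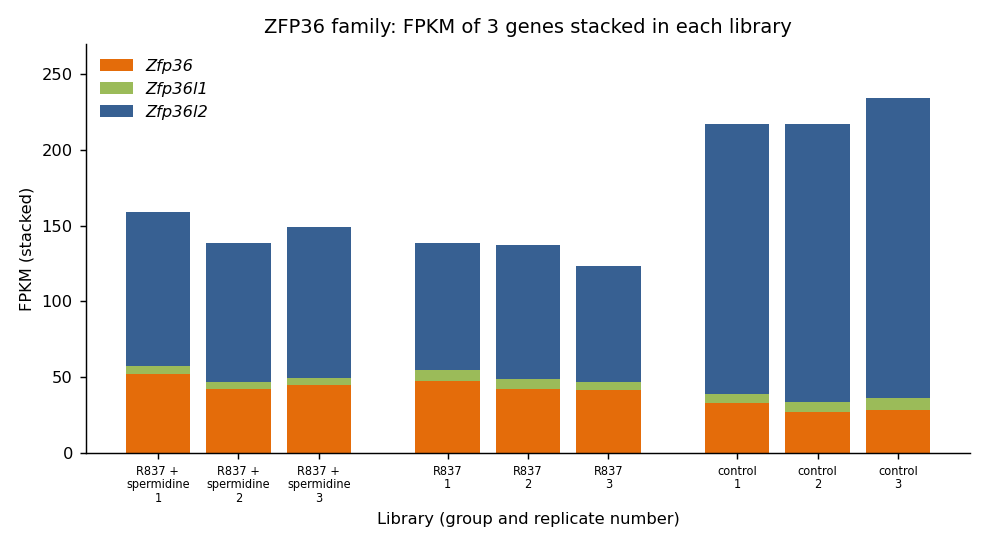
FPKM of Zfp36 (orange), Zfp36l1 (green) and Zfp36l2 (blue) stacked for each of the 9 libraries, from 0. The stacks reach 138 to 160 FPKM with R837 and spermidine and 123 to 139 FPKM with R837, against 217 to 234 FPKM in control, and Zfp36l2 is shorter and Zfp36 taller in the treated libraries.

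Rc3h1 (chromosome 1, 160906418 to 160974978, plus strand) and Rc3h2 (chromosome 2, 37370069 to 37422903, minus strand) encode Roquin-1 and Roquin-2, partly redundant proteins known for restraining Icos and Tnfrsf4 in T cells. Rc3h1 had 8.42, 9.41 and 8.10 FPKM with R837 and spermidine, 7.03, 4.60 and 7.13 FPKM with R837, and 5.72, 5.77 and 6.09 FPKM in control. The spermidine libraries were above all others and R837 overlapped control. Cells with R837 and spermidine were called higher than control, 1.48-fold in mean FPKM and 0.49 ± 0.14 in log2 (limma adjusted p = 0.018); the call was lost without control replicate 1 or 2 (0.053 each) or R837 with spermidine replicate 2 (0.063). Against R837 alone the log2 change was 0.43 ± 0.14 (adjusted p = 0.076), and R837 against control gave 0.06 ± 0.14 (adjusted p = 0.75).

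Rc3h2 had 1.57, 1.95 and 1.92 FPKM with R837 and spermidine, 1.46, 0.853 and 1.56 FPKM with R837, and 1.12, 1.51 and 1.52 FPKM in control. It followed the same order as Rc3h1 in that every spermidine library was above every other library, and in no comparison did it pass: the log2 changes were 0.31 ± 0.14 for R837 with spermidine against R837 (limma adjusted p = 0.18), 0.24 ± 0.14 against control (0.19) and -0.07 ± 0.14 for R837 against control (0.72). R837 replicate 2 was the lowest of the 9 libraries for both Rc3h1 and Rc3h2. In that library genes whose longest transcript exceeds 3888 bases were 0.05 lower in median, and those of at most 2117 bases 0.09 higher, than in the mean of the other R837 libraries on the log2 scale. The Rc3h1 and Rc3h2 transcripts with the longest 3′UTR have 11006 and 8948 bases, so both genes belong to those above 3888 bases. Without R837 replicate 2, R837 with spermidine against R837 gave 0.25 for Rc3h1 (adjusted p = 0.066) and 0.16 for Rc3h2 (0.38), and R837 against control gave 0.24 for Rc3h1, which then passed (0.035), and 0.08 for Rc3h2 (0.60). The part of transcript length in these values was not tested further. Serpinb9, a granzyme B inhibitor (r = 0.989), Atp13a3 (0.980) and Nr3c1, the glucocorticoid receptor (0.977), were most like Rc3h1, and Aff4 (0.964), Ranbp2 (0.951) and Kansl1 (0.950) most like Rc3h2. For each of these genes R837 replicate 2 was again the lowest of the 9 libraries, so that library contributes to these correlations.

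Arid5a (chromosome 1, 36307733 to 36324029, plus strand), the factor that opposes Regnase-1, had 0.907, 1.18 and 1.28 FPKM with R837 and spermidine, 1.12, 1.45 and 1.05 FPKM with R837, and 1.6, 1.7 and 1.5 FPKM in control. All treated libraries were below all control libraries and the treated groups overlapped. R837 against control gave -0.24 ± 0.11 (limma adjusted p = 0.10), which passed without R837 replicate 2 at -0.32 (0.037). With R837 and spermidine it was called lower than in control at the threshold, -0.30 ± 0.11 (adjusted p = 0.048), and this call held in only 4 of 18 alternative settings. Leaving out 1 library ended it for each control library (replicate 1, 0.10; 2, 0.13; 3, 0.077), each library with spermidine (1, 0.15; 2, 0.083; 3, 0.052) and the R837 libraries 1 (0.061) and 3 (0.051). It was also lost under median-of-ratios scaling, which gave -0.17 (0.24). Spermidine with R837 against R837 alone gave -0.06 ± 0.11 (0.77). Nr2f6 and Sdhb (r = 0.978 each) and Vapb (0.973) had the most similar patterns over the 9 libraries. Like Arid5a, each had its highest treated level in R837 replicate 2, so that library contributes to these correlations.

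**Figure D3:**
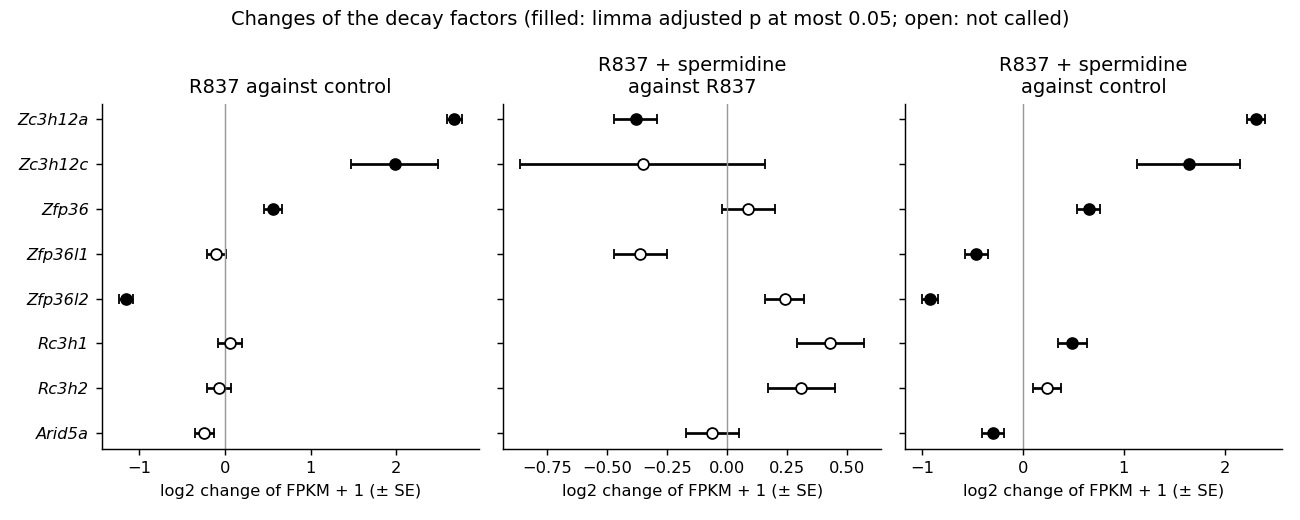
Log2 change of FPKM + 1 with its standard error (limma, 9 libraries in 1 fit) for the 8 genes in 3 comparisons; filled points passed an adjusted p of 0.05 and the 3 horizontal axes differ in range. R837 against control spans 2.68 for Zc3h12a to -1.16 for Zfp36l2, and in the middle panel Zc3h12a, at -0.38, is the filled point.

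The tristetraprolin and Roquin proteins hand their targets to general decay enzymes. Lists of those enzymes, of other binding proteins, of upstream kinases and of target transcripts were drawn up from textbook knowledge. Over all tested genes, R837 against control called 13.6% higher and 29.5% lower. Those shares were 5.6% and 8.0% for R837 with spermidine against R837, and 14.1% and 32.7% for R837 with spermidine against control. Of 18 genes of the deadenylation machinery, R837 against control called 2 higher and 5 lower, with a median log2 change of -0.11, against -0.17 for all genes. Btg1, which recruits CCR4-NOT, averaged 216 ± 21.1 FPKM with R837 and spermidine and 216 ± 21.8 FPKM with R837, against 102 ± 5.00 FPKM in control, and rose with R837 by 1.07 ± 0.10 in log2 (limma adjusted p = 2.9e-05). The catalytic subunits Cnot8 (24.8 ± 2.28, 21.6 ± 0.944 and 39.4 ± 1.97 FPKM in the same order of groups) and Cnot6l (3.73 ± 0.466, 2.54 ± 0.632 and 6.90 ± 0.307 FPKM) had log2 changes of -0.84 and -1.17 with R837 against control (adjusted p = 5e-05 and 1.5e-04). Adding spermidine to R837 called 1 of the 18, Btg2, an antiproliferative CCR4-NOT partner, lower: 13.4 ± 1.04 FPKM with R837 and spermidine, against 19.1 ± 0.492 FPKM with R837 (log2 change -0.49 ± 0.08, adjusted p = 0.0047). Set against control, cells with R837 and spermidine had 1 of the 18 higher, or 3 under median-of-ratios or quantile scaling, and 4 lower.

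Among 14 decapping and 5′ decay genes, R837 against control called 1 higher and 2 lower, where 13.6% of all genes were higher and 29.5% lower. Pnrc1, a decapping coactivator, rose to 113 ± 4.80 FPKM with R837, against 65.9 ± 2.84 FPKM in control (log2 change 0.77 ± 0.07, limma adjusted p = 2.5e-05). Both lower calls, Dcps and Xrn2, were lost under median-of-ratios scaling (adjusted p = 0.093 and 0.22), and that of Xrn2 also when any control library (replicate 1, 0.073; 2, 0.069; 3, 0.10) or replicate 2 of the spermidine group (0.050, above the threshold before rounding) was left out. The higher count became 2 without control replicate 2, 3 without R837 replicate 2 and 4 under median-of-ratios scaling. Adding spermidine to R837 called 1 lower, Dcp1b (log2 change -0.37, limma adjusted p = 0.041). That call held when R837 replicate 3 was left out and was lost without each of the other 8 libraries (0.057 to 0.11). Dcp1b was near the filter, at 0.582, 0.781 and 0.671 FPKM with R837 and spermidine and 1.2, 1.3 and 0.995 FPKM with R837. No library with spermidine reached 1 FPKM, so the gene passed the filter through the other groups. Of 17 exosome and Ski complex genes, R837 with spermidine against R837 called 3 lower, where 8.0% of all genes were, and 0 higher. The median was -0.13, against -0.02 for all genes. At an unadjusted limma p under 0.05, 5 were lower and 0 higher, against 1948 and 1503 of all 11768 genes. The exosome cap subunit Exosc3 had 10.1 ± 1.60 FPKM with R837 and spermidine, against 18.6 ± 2.61 FPKM with R837 (log2 change -0.82 ± 0.13, adjusted p = 0.0046). The other two, Exosc1 and the helicase Skiv2l (-0.43 and -0.39, adjusted p = 0.015 and 0.019), lost their calls when replicate 2 of the spermidine group (0.055 and 0.063) or its replicate 3 (0.065 and 0.059) was left out, which left 1, and Skiv2l also not without R837 replicate 1 (0.053) or R837 with spermidine replicate 1 (0.055). R837 against control called 1 exosome gene higher and 2 lower; the lower count was 0 without control replicate 1, control replicate 3 or R837 replicate 1, 1 without control replicate 2 and 4 without R837 replicate 2, and the higher count was 0 without control replicate 1 or 3 and 2 without R837 replicate 2 or 3. Under median-of-ratios scaling 3 exosome genes were higher and 0 lower. Against control, limma called 8 of the 17 exosome genes lower and 0 higher with R837 and spermidine, where 32.7% of all genes were lower. The median was -0.32, against -0.17 for all genes. That lower count was 4 and the higher count 1 under median-of-ratios scaling, and 5 and 1 with quantile normalization. At an unadjusted limma p under 0.05, 9 were lower and 0 higher, against 4446 and 1926 of all 11768 genes. The 14 decapping genes in that comparison gave 2 higher and 3 lower, the lower count being 1 under either scaling or without replicate 2 of the spermidine group.

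Of 24 other proteins that act on AU-rich or stem-loop transcripts, 21 were tested, and R837 against control called 3 higher (6 under median-of-ratios scaling) and 3 lower. Over all genes 13.6% were higher and 29.5% lower there. Zc3h12d, which encodes the related Regnase-4, had 7.68 ± 0.876 FPKM with R837 and spermidine and 6.98 ± 0.399 FPKM with R837, against 4.58 ± 0.533 FPKM in control, and rose with R837 by 0.52 ± 0.10 in log2 (limma adjusted p = 0.0034). N4bp1, a ribonuclease that restrains cytokine output and is cut by caspase-8 in mouse macrophages, was higher by 0.36 (adjusted p = 0.0053). The multifunctional RNA-binding protein gene Ybx1 and Tial1, which encodes the translation repressor TIAR, had log2 changes of -0.47 and -0.54 (adjusted p = 0.0018 and 0.0043). With spermidine added to R837, limma called 1 of the 21 lower, Hnrnpa0, named after its value was seen (-0.33, adjusted p = 0.049); that count was 0 without each of 7 libraries, all but R837 replicate 2 and 3. In cells with R837 and spermidine, 5 of the 21 were higher and 4 lower than in control; the higher count was 3 without control replicate 1 or replicate 2 of the spermidine group and 8 under median-of-ratios scaling, and the lower count 2 without control replicate 3 or replicate 2 of the spermidine group and 1 under that scaling.

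Kinases and partners that act on the decay factors changed in both directions. With R837 against control, 6 of 20 were called higher and 5 lower, where 13.6% of all genes were higher and 29.5% lower. The lower count was 3 without control replicate 1 or 3 or R837 replicate 1 or 3. It was 2 without control replicate 2, and 1 under median-of-ratios scaling. Mapkapk2 encodes MK2, which phosphorylates and restrains tristetraprolin, and averaged 236 ± 5.81 FPKM with R837 and spermidine and 279 ± 13.8 FPKM with R837, against 87.5 ± 3.15 FPKM in control (log2 change with R837 1.66 ± 0.07, limma adjusted p = 1.6e-07). Malt1, the protease that cuts Regnase-1 in lymphocytes, averaged 54.7 ± 6.68, 64.8 ± 13.0 and 14.9 ± 0.425 FPKM in the same groups (2.03 ± 0.14, adjusted p = 6.4e-06). Ikbke encodes a kinase of the family that marks Regnase-1 for degradation, and averaged 25.9 ± 0.784 FPKM with R837 and spermidine and 49.1 ± 2.68 FPKM with R837, against 12.5 ± 0.658 FPKM in control. Its log2 change was 1.89 ± 0.07 for R837 against control (adjusted p = 1.3e-07) and -0.90 ± 0.07 for R837 with spermidine against R837 (adjusted p = 2e-04).

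With spermidine added to R837, limma called 3 of these 20 higher and 4 lower, where 5.6% of all genes were higher and 8.0% lower. The higher count was 1 without any single library of the 3 with spermidine. The lower count was 2 without control replicate 2, R837 replicate 3 or R837 with spermidine replicate 2 or 3. Dusp1, the phosphatase that switches off p38 upstream of MK2, rose to 101 ± 4.37 FPKM with R837 and spermidine, against 61.2 ± 3.53 FPKM with R837 (log2 change 0.72 ± 0.07, limma adjusted p = 4.2e-04). Mapkapk2 gave -0.24 ± 0.07 in that comparison (adjusted p = 0.044), and without each single library other than R837 replicate 2 it did not pass (0.056 to 0.12). Against control, cells with R837 and spermidine had 7 of the 20 higher and 4 lower, or 1 lower under median-of-ratios scaling. Over all genes 14.1% were higher and 32.7% lower in that comparison.

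**Figure D4:**
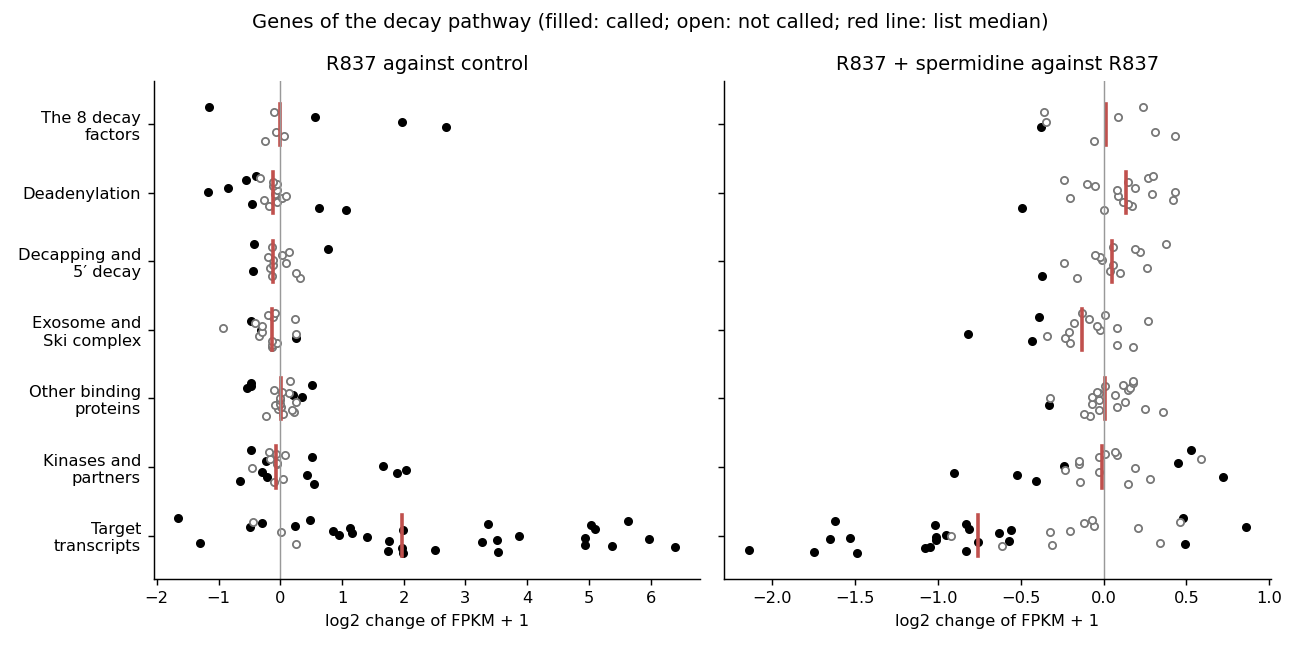
Log2 change of FPKM + 1 of each tested gene (points; filled where limma called it at an adjusted p of at most 0.05) in the 8 decay factors and 6 lists of related genes, with the list median in red, for R837 against control and R837 with spermidine against R837; the 2 horizontal axes differ in range. The target transcripts lie to the right in the first comparison (median 1.98) and mostly to the left in the second (median -0.76), while the medians of the other lists stay between -0.14 and 0.14.

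Most target transcripts were higher with R837 than in control, and most were lower with spermidine added than with R837 alone. Of 35 textbook targets 33 were tested. R837 against control called 26 higher and 4 lower, where 13.6% of all genes were higher and 29.5% lower. The median log2 change was 1.98, against -0.17 for all genes, and the lower count was 2 under median-of-ratios scaling. R837 with spermidine against R837 called 3 higher and 19 lower, where 5.6% of all genes were higher and 8.0% lower. The median there was -0.76, against -0.02 for all genes. Cells with R837 and spermidine had 25 higher and 4 lower than control, or 2 lower under median-of-ratios scaling. Over all genes 14.1% were higher and 32.7% lower there. The list was chosen with earlier results of these data known, so it gives no independent support. Tnf, the founding target of tristetraprolin, averaged 402 ± 35.0 FPKM with R837 and spermidine and 1240 ± 88.8 FPKM with R837, against 24.1 ± 1.83 FPKM in control. Il12b, the shared subunit of interleukins 12 and 23, averaged 105 ± 3.67, 330 ± 30.6 and 4.27 ± 0.738 FPKM in the same order, the chemokine gene Cxcl1 96.4 ± 17.5, 200 ± 23.1 and 1.37 ± 0.145 FPKM, and Nfkbiz, which encodes the nuclear cofactor IκBζ, 50.2 ± 3.16, 89.7 ± 13.4 and 1.63 ± 0.0295 FPKM. The log2 changes for R837 with spermidine against R837 were -1.62 ± 0.09, -1.65 ± 0.11, -1.05 ± 0.13 and -0.81 ± 0.10 for the 4 genes (limma adjusted p = 3.7e-05, 8.4e-05, 0.0016 and 0.0018). The comparisons share the R837 libraries, so no relation between them is drawn.

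These 4 targets were named for having the smallest adjusted p in the same comparisons, so their levels per unit of Zc3h12a in the same library are given as a description, with no test. Tnf had 3.86, 3.65 and 3.64 FPKM for each FPKM of Zc3h12a with R837 and spermidine, 9.72, 7.45 and 9.44 with R837, and 1.12, 1.06 and 1.25 in control. The 3 groups did not overlap. Il12b had 0.968 ± 0.0380, 2.38 ± 0.483 and 0.203 ± 0.0377 in that order, Cxcl1 0.888 ± 0.111, 1.43 ± 0.205 and 0.0652 ± 0.0080, and Nfkbiz 0.467 ± 0.0532, 0.634 ± 0.0158 and 0.0777 ± 0.00193 (SD, n = 3 each).

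**Figure D5:**
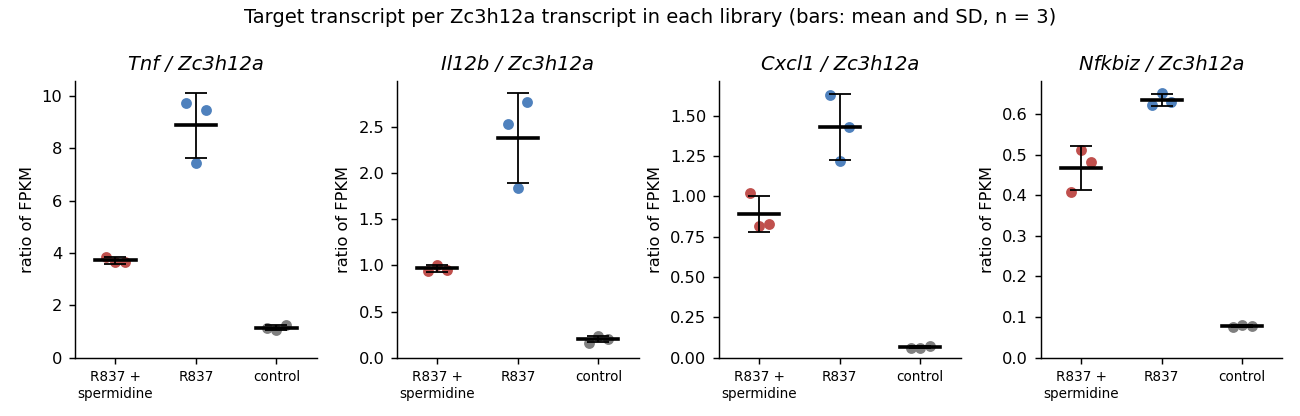
FPKM of 4 target transcripts divided by the FPKM of Zc3h12a in the same library (points; linear axes from 0, which differ between panels), with mean and SD as bars, R837 with spermidine at the left and control at the right. For Tnf the points lie at 3.64 to 3.86 with R837 and spermidine and at 7.45 to 9.72 with R837, against 1.06 to 1.25 in control.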

How the data were processed

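mRNA sequencing libraries of 9 sorted mouse cell samples were analysed, 3 for each of R837 with spermidine, R837 and control; titles and treatment labels gave the groups. Per the file headers, the authors deposited FPKM values, 1 table a library; HISAT2, StringTie and the builds mm8 and mm10 are named without version or role in the submitters' processing notes, and the annotation release is not given in the sources used here. Raw counts were not used here, and only 32.4% to 36.6% of low values lay within 0.05 of a whole step, so no count test was run. Of 52550 gene identifiers, 52403 (99.7%) matched GENCODE mouse release 21 (GRCm38) once version suffixes were dropped, and where a symbol had more than 1 identifier (73 symbols) FPKM were added up.

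FPKM were analysed as log2(FPKM + 1) for the 11768 genes with FPKM of at least 1 in at least 3 libraries, so changes of low genes are understated. limma 3.58.1 (R 4.3.3) was fitted once to all 9 libraries with a mean-variance trend, and p-values were adjusted by Benjamini-Hochberg over all tested genes, with 0.05 as the threshold; all adjusted p-values are from limma, and the procedure was tested on simulated data. Few values were compared by exact permutation. There were 19 alternative settings: a pseudocount of 0.1, no filter, only genes averaging 5 FPKM or more, TPM, median-of-ratios and quantile scaling, no trend, only the groups compared, a replicate block, identifiers not summed and each library left out. Named genes were the 8 members, up to 4 genes of each list with the smallest adjusted p in R837 against control or in R837 with spermidine against R837, and for each member the 3 genes outside the lists, averaging 5 FPKM or more in some group, that had the highest Pearson r. Members and lists were chosen with earlier results of these data known, so they give no independent support. A value of 0 is given as listed at 0. Motifs were searched in the longest 3′UTR of basic protein-coding transcripts.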

Additional observations from a re-analysis of the deposited data

How the results depend on the processing

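Over the 19 settings Zc3h12a, Zfp36 and Zfp36l2 passed in every one against control, with R837 and with R837 and spermidine, and so did Zc3h12c with R837. For R837 against control the sign turned for Zfp36l1 with median-of-ratios scaling (0.07) and quantile normalization (0.02), for Rc3h2 with both (0.05 and 0.06) and without R837 replicate 2 (0.08), and for Rc3h1 without R837 replicate 1 (-0.02) or 3 (-0.03); with 1 library left out Rc3h1 ranged over -0.03 to 0.24 and Rc3h2 over -0.16 to 0.08. For R837 with spermidine against R837 it turned for Zc3h12c without R837 replicate 1 (0.05) or R837 with spermidine replicate 1 (0.03), and for Arid5a without R837 replicate 2 (0.02) or R837 with spermidine replicate 1 (0.02), with leave-one-out ranges of -0.85 to 0.05 and -0.11 to 0.02. None of these had passed. With 1 library left out, members called higher and lower numbered 3 to 4 and 1 to 2 for R837 against control, 0 to 1 and 0 to 2 for R837 with spermidine against R837, and 2 to 4 and 2 to 3 for R837 with spermidine against control. The lower call of Zc3h12a with spermidine became 0 with no filter (adjusted p = 0.063), quantile normalization (0.065), the replicate block (0.054) or only the 2 groups compared (0.094), and members lower against control with R837 and spermidine became 1 with median-of-ratios or quantile scaling, where Zfp36l1 and Arid5a were lost; why was not tested. Rc3h2 passed there with quantile normalization (0.39, 0.037), and Zc3h12c did not with no filter (0.075). Same-numbered libraries correlated at -0.0912 to 0.159 in their deviations, so the numbers were not taken to pair samples; besides Zc3h12a, the replicate block lost the call of Arid5a against control (0.059). Over all genes, R837 with spermidine against R837 called 659 higher and 942 lower, 440 and 637 with no filter, 470 and 661 with the replicate block, 301 and 456 with only the 2 groups, and 290 and 476 or 290 and 459 without R837 with spermidine replicate 2 or 3. The lower genes against control, 3477 with R837 and 3850 with R837 and spermidine, became 1823 and 2092 with median-of-ratios scaling, and the 1658 higher with R837 and spermidine became 2446. Rc3h2 and Arid5a, near 1 FPKM, were not tested with a mean FPKM of at least 5. Of the counts of genes called in the other lists, 42, 49 and 19 of 228 in the 3 comparisons moved by over 1.5 times.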
